A study of Mus musculus with 21 samples.

Results

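The 7 genes described here encode cytoplasmic intermediate filament proteins and were followed through cochlear spiral ganglion neurons (SGNs) of 5 ages and through 2 reference cell types of the inner ear. They were chosen by name, with gene symbols matched to the Ensembl identifiers of the count table, and make up 7 of its 52550 genes: Nefl, Nefm and Nefh, which encode the light, medium and heavy neurofilament subunits; Ina, which encodes alpha-internexin; Prph, which encodes peripherin; and Vim and Nes, which encode vimentin and nestin. The rule used their names and no measured level, but it was set with earlier results of these data known.

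Neurofilaments are heteropolymers that fill the axon. The light subunit is needed for assembly, the medium and heavy subunits carry long phosphorylated tails that project from the filament, and the calibre of myelinated axons depends on the filament content. Alpha-internexin joins the same polymers and is known to appear early in neuronal development. Peripherin belongs to peripheral neurons and, in the adult cochlea, is widely used to mark the unmyelinated type II SGNs that contact outer hair cells, whereas the more numerous type I SGNs contact inner hair cells. Vimentin and nestin are filaments of progenitors, and vimentin also of glia, endothelium and connective tissue.

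The SGNs came from ShhCre/+; Ai9/+ mice, in which Cre from the Shh locus switches on the tdTomato reporter of Ai9 in SGNs, at E15.5 and at P1, P8, P14 and P30. Hair cells (HCs) at P12 came from Atoh1-CreER+; Ai9/+ mice given tamoxifen at P0 and P1, and were taken from cochlear and vestibular organs together. Glial cells at P8 came from vGlut3-iCreER/+; Ai9/+ mice given tamoxifen at P2 and P3, a driver that also labels inner hair cells, so that only the SGN area was dissected. All mice carried the Ai9 reporter and were of the C57BL/6 strain, each of the 7 groups had 3 libraries, and a library held 69 to 195 SGNs, 86 to 125 glial cells or about 1200 HCs. The labels do not say which mice were pooled in a library, so the p-values measure the spread between libraries. As each library is a pool of cells, fewer cells of a type and less RNA per cell cannot be told apart.

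The 21 libraries held 10368240 to 37287489 counts, with a median of 20384100, and 3 counts, the floor used here for a count of 0, correspond to a CPM (count scaled to library size) of 0.0805 to 0.289. Levels between genes are given as TPM, in which counts are divided by gene length and scaled to the same sum in every library, and floors cover counting error only. The summed TPM of 3 SGN markers (Slc17a6, Slc17a7 and Lypd1) was 37.6 to 601 in the SGN libraries, 5.88 to 9.71 in the HC libraries, and 38.4, 5.12 and 1.82 in glial replicates 1, 2 and 3, so that glial replicate 1 stood apart. Among the SGN libraries, 5 connective tissue markers summed to 141 TPM in P1 replicate 1 and 151 TPM in P8 replicate 1 against 0.153 to 70.2 TPM in the others. P14 replicate 1 held the highest sums of 5 HC markers (117 TPM) and of 3 glial markers (72.7 TPM). E15.5 replicate 2 held the lowest SGN marker sum of the SGN libraries (37.6 TPM), at the level of glial replicate 1. TPM is scaled lower in that library: 3 counts of Nefl came to 0.0391 TPM, against 0.0918 and 0.0777 TPM in E15.5 replicates 1 and 3.

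The genes lie on 6 chromosomes (GRCm38, the same assembly as mm10). Nefl (ENSMUSG00000022055.7, chr14:68083863-68089095, plus strand) and Nefm (ENSMUSG00000022054.11, chr14:68082590-68124846, minus strand) are neighbors that overlap on opposite strands, and 1108 exonic bases are shared, 32.8% of the length of Nefl and 19.2% of that of Nefm. Ina (ENSMUSG00000034336.3, chr19:47014698-47025327, plus strand) overlaps Nt5c2 on the opposite strand over 456 exonic bases, 14.1% of its length. The strand setting of the counting is not given in the sources used here, so part of the counts of these 3 genes could come from the partner or be left uncounted. Nefh (ENSMUSG00000020396.8, chr11:4938754-4948064, minus strand), Prph (ENSMUSG00000023484.13, chr15:99055174-99058978, plus strand), Vim (ENSMUSG00000026728.9, chr2:13573927-13582826, plus strand) and Nes (ENSMUSG00000004891.16, chr3:87971078-87980451, plus strand) overlap the exons of no other annotated gene.

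Promoter sequence was at hand for 4 of the 7 genes, those outside the neurofilament triplet, and the 100 bases before each RefSeq start are printed. For Ina, Vim and Nes the RefSeq start differs from the gene start given above, and the Vim window lies inside the gene span given there. They are from RefSeq (GRCm38.p6), plus strand, 5′ to 3′, with a TATA box match in capitals.
Ina, chr19:47014581-47014680: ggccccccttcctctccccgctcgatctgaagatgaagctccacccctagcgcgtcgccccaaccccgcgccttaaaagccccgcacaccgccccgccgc
Prph, chr15:99055074-99055173: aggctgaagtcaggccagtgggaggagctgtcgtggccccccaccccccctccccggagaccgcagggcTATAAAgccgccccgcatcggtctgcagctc
Vim, chr2:13574211-13574310: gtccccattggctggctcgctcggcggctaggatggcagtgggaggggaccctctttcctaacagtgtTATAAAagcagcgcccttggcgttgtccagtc
Nes, chr3:87970993-87971092: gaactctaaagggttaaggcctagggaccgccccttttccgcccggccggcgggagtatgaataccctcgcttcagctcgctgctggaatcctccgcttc
The letters TATAAA, searched on both strands, begin at position -31 from the start of Prph and at position -32 from that of Vim, and are not in the windows of Ina and Nes. They occur in 5.56% of the 32851 RefSeq promoter windows of this length.

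Nefl, the subunit on which assembly depends, was the most abundant of the 7 genes in every SGN library from P1 on. Its levels in replicates 1, 2 and 3 were 629, 273 and 630 TPM at E15.5, then 1148, 1135 and 1531 TPM at P1. They were 1618, 3275 and 1423 TPM at P8, 2441, 1062 and 3678 TPM at P14, and 1394, 1875 and 993 TPM at P30. Every library from P1 on thus lay above those of E15.5, while the TPM ranges of P8, P14 and P30 overlapped. By CPM, P8 (3729, 4544 and 4286) lay above P30 (3223, 3456 and 2818), and P14 (3442, 3499 and 4974) overlapped both. By mean TPM, Nefl ranked 33 among all genes at E15.5 and 17 at P14.

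Nefm, the medium subunit, varied least with age among the triplet. Its levels were 552, 287 and 634 TPM at E15.5, 1102, 886 and 845 TPM at P1, 953, 1199 and 566 TPM at P8, 1333, 548 and 1638 TPM at P14, and 772, 1006 and 597 TPM at P30. By TPM, only the E15.5 and P1 ranges were apart among neighboring ages. By CPM these 2 overlapped as well, with P1 replicate 3 (2094) within the E15.5 range (2010 to 2415).

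Nefh, the heavy subunit, was low at E15.5, at 12.1, 19.4 and 27.2 TPM. Its levels reached 195, 321 and 187 TPM at P1 and 773, 762 and 493 TPM at P8. They were 1529, 761 and 1524 TPM at P14 and 785, 954 and 520 TPM at P30. By TPM, the 3 libraries of each age up to P8 lay above all libraries of the age before, and P8, P14 and P30 overlapped. By CPM, P14 (2547, 2964 and 2436) lay above all libraries of P8 (2107, 1250 and 1755) and P30 (2145, 2078 and 1742). Its rank by mean TPM moved from 2806 at E15.5 to 173 at P1 and 38 at P14.

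Ina, whose product joins the neurofilaments of young neurons, had the highest mean TPM of the 7 genes at E15.5. Its levels were 663, 247 and 815 TPM at E15.5, 516, 607 and 715 TPM at P1, 312, 693 and 324 TPM at P8, 511, 237 and 602 TPM at P14, and 201, 307 and 186 TPM at P30. By CPM, P30 (446, 543 and 505) lay below P14 (691, 747 and 780). E15.5 replicate 2 had the lowest summed TPM of SGN markers. It was the lowest of its age for Nefl, Nefm and Ina and the highest for Prph. By CPM the order was the same, with smaller gaps for the first 3 genes. Nefl had 1121 against 1595 and 1402, Nefm 2010 against 2393 and 2415, and Ina 969 against 1612 and 1740.

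Prph scattered more between libraries than the other 6 genes at E15.5, P14 and P30, with coefficients of variation of 125%, 95.2% and 166%. Its levels were 26.7, 173 and 13.3 TPM at E15.5, 40.7, 40.3 and 57.2 TPM at P1, and 9.41, 5.40 and 2.34 TPM at P8. They were 83.9, 0.643 and 47.0 TPM at P14 and 108, 2.99 and 0.306 TPM at P30. At P14 and at P30, a library with under 1 TPM thus stood beside a library with more than every P1 library.

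Vim was in every SGN library, at 60.7, 34.5 and 56.6 TPM at E15.5, 71.4, 17.2 and 53.4 TPM at P1, 63.6, 27.9 and 17.0 TPM at P8, 12.5, 3.90 and 25.6 TPM at P14, and 9.52, 8.86 and 7.45 TPM at P30. All P30 libraries lay below all libraries of E15.5, P1 and P8. P1 replicate 1 and P8 replicate 1, the libraries with the highest connective tissue sums, were the highest of their ages for Vim and for Nes. The 8 Schwann cell myelin markers summed to 816 to 1500 TPM at P8 and to 947 TPM in P14 replicate 1, beside 7333 to 10011 TPM in glia. The part of connective tissue cells and of glia in the Vim and Nes values was not tested. Nes, the progenitor filament, stayed at or below 5.02 TPM in the SGN libraries, and in P30 replicate 3 it had 0 counts, which allows up to 0.0222 TPM.

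**Figure D1:**
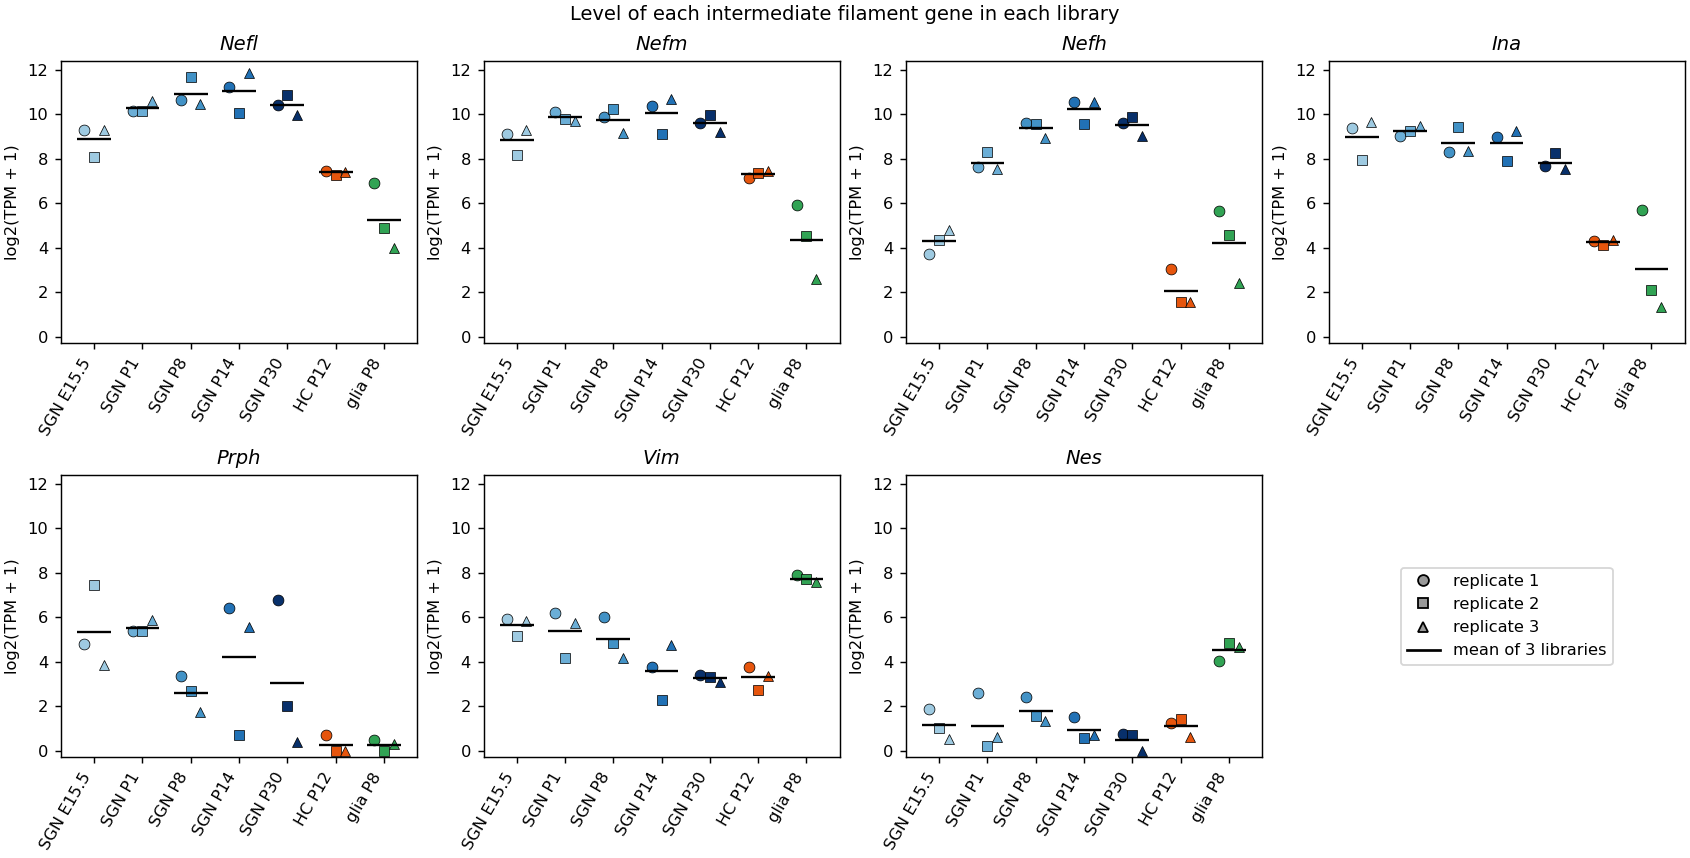
The plot gives log2(TPM + 1) (y axis) of each of the 7 genes in each library (points, shape by replicate) for the 5 SGN ages, HCs and glia (x axis), with lines at the mean of 3 libraries. Nefh climbs from 12.1 to 27.2 TPM at E15.5 to 761 to 1529 TPM at P14, and Vim and Nes are highest in glia.

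The first comparison asked which of the genes changed from one age to the next as SGNs matured. All 7 passed the filter on low counts (CPM over 1 in all libraries of at least 1 age), Prph through E15.5, P1, P8 and P14 and Nes through E15.5, P8 and P14. In a moderated F-test over the 5 ages (limma-voom, Benjamini-Hochberg adjustment), 5 of the 7 changed at adjusted p under 0.05, as did 43.9% of the 15113 genes tested. They were Nefh (adjusted p = 2.61e-09), Nefl (2.20e-08), Nefm (0.000892), Vim (0.00408) and Ina (0.00409). Prph (0.370) and Nes (0.212) did not pass. Nefm did not pass with library size as the only scaling (adjusted p = 0.0813), and Nes passed with the replicate number as a block (0.0387).

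Neighboring ages were called different where the adjusted p was under 0.05 and the fold was over 2. Between E15.5 and P1, 1 of the 7 genes was called, Nefh, higher in P1 (5.08% of all genes tested were called higher). Its log2 fold change was 3.06 ± 0.44 (SE, limma-voom adjusted p = 0.000551), an 8.31-fold rise. Nefl had a log2 fold change of 0.91 ± 0.16 with adjusted p = 0.00192, under the 2-fold limit, and it was called without E15.5 replicate 1 (log2 fold change 1.01). The count of called genes was 2 in that case, and also when P1 replicate 1, P8 replicate 1 and P14 replicate 1 were left out together, where Vim was called lower at P1.

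From P1 to P8, 2 of the 7 genes were called, both higher (4.29% of all genes tested were called higher). Nefh rose 3.94-fold, with a log2 fold change of 1.98 ± 0.27 (limma-voom adjusted p = 0.000178), and Nefl rose 2.10-fold, with 1.07 ± 0.13 (8.63e-05). Scaled by library size alone, Nefl had 0.85 and was not called. All P8 libraries lay below all P1 libraries for Prph, with a log2 fold change of -2.72 ± 1.67 that was not called (adjusted p = 0.336). In a fit of the P1 and P8 libraries alone, which does not share the spread of the other ages, it was called lower at P8 (-2.74 ± 0.39, limma-voom adjusted p = 0.00199). From P8 to P14, none of the 7 was called by limma-voom, against 0.536% of all genes tested in either direction, and at an unadjusted p under 0.05 there were 2, Nefh and Vim. From P14 to P30 none was called either, against 0.0596% of all genes, with 2 at an unadjusted p under 0.05, Nefl and Ina. DESeq2 called 1 gene from P8 to P14, Vim, and none from P14 to P30, and edgeR's quasi-likelihood test called none in either step.

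Over the whole span, 2 of the 7 genes were called higher at P30 than at E15.5 and 2 lower, where 18.4% of all genes tested were called higher and 16.2% lower. Nefh differed by 42.3-fold (log2 fold change 5.40 ± 0.42, limma-voom adjusted p = 6.88e-08) and Nefl by 3.24-fold (1.69 ± 0.15, 3.38e-07). Nefm had a log2 fold change of 0.90 ± 0.18 (adjusted p = 0.000998), under the 2-fold limit. Ina was 2.03-fold lower at P30 (-1.02 ± 0.20, adjusted p = 0.000606), so near the limit that leaving out E15.5 replicate 1, E15.5 replicate 3 or P30 replicate 1 ended the call (log2 fold changes of -0.93, -0.88 and -0.94), as did 4 other fits, which moved it just inside the 2-fold limit. Vim was 5.04-fold lower (-2.33 ± 0.55, adjusted p = 0.00319). Over the same span the 5 connective tissue markers went from 8.35 to 28.3 TPM (median 23.1) at E15.5 to 0.153 to 20.97 TPM (median 0.742) at P30, and the 3 glial markers from 7.06 to 28.6 TPM (median 9.30) to 0.386 to 6.09 TPM (median 2.15). The part of those cells in the Vim difference, and in that of the Vim and Nes share given further on, was not tested. Prph (-2.36 ± 1.76, adjusted p = 0.295) and Nes (-2.78 ± 1.72, adjusted p = 0.207) had differences of a similar size to that of Vim, with errors over 3 times as large. The median log2 fold change of the 7 genes was -1.02, beside -0.01 over all genes tested.

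These directions are relative to the TMM scaling (trimmed mean of M-values). Scaling by library size alone moved the median of all genes by -0.47 on the log2 scale from E15.5 to P30, and the genes called higher and lower went from 2778 and 2446 to 1714 and 3944. From E15.5 to P1 they went from 767 and 481 to 572 and 638, from P1 to P8 from 648 and 476 to 425 and 756, and from P8 to P14 from 38 and 43 to 19 and 55. None of the called genes of the 7 changed direction under it.

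**Figure D2:**
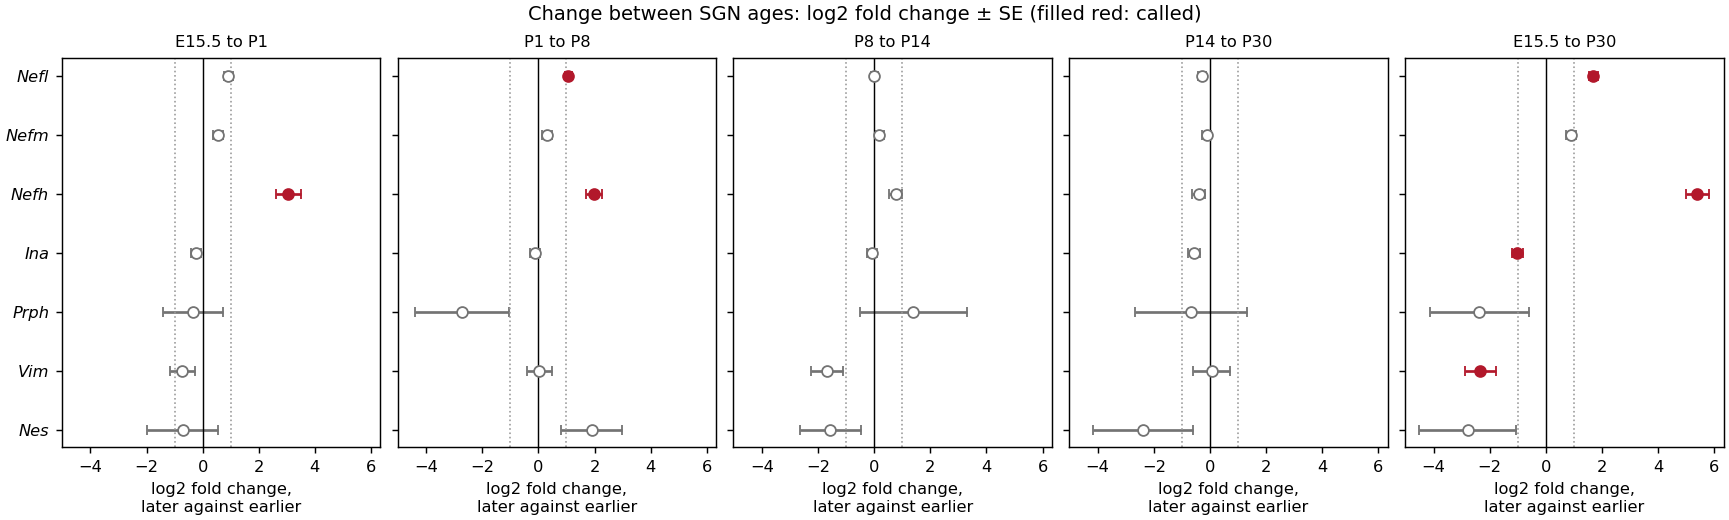
Each panel shows, for 1 comparison of SGN ages, the log2 fold change (x axis) with its standard error (bars) for the 7 genes (y axis); filled red points were called and dotted lines mark the 2-fold limits. Nefh and Nefl lie to the right from E15.5 to P30 and Ina and Vim to the left, whereas no gene is called after P8.

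Since every library is scaled on its own, the mix of the 7 transcripts within a library was also compared; shares of TPM do not depend on the scaling between libraries. Nefh made up 1.02%, 3.35% and 2.11% of the summed TPM of the triplet in replicates 1, 2 and 3 at E15.5, and 7.97%, 13.7% and 7.28% at P1. The share was 23.1%, 14.6% and 19.9% at P8, 28.8%, 32.1% and 22.3% at P14, and 26.6%, 24.9% and 24.6% at P30. The libraries of P14 and P30 lay apart from and above those of E15.5 and P1, at 26.6% ± 3.49 (SD, n = 6) against 5.90% ± 4.73 (n = 6), and the exact two-sided permutation test over 924 regroupings gave p = 0.00216, the smallest it can give (adjusted over 4 shares, 0.00289). Nefm had 46.2% to 49.5% of the triplet at E15.5 and 26.2% to 28.3% at P30, while Nefl had 47.2% to 52.7% and 47.1% to 48.9%; these shares were not tested.

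The share of Ina went the other way. It depends on Nefl and Nefh, which rose, as well as on Ina, which was called at no step between neighboring ages. From E15.5 to P8 the log2 fold change of Ina itself was -0.38 ± 0.21 (limma-voom adjusted p = 0.212, fit of all 21 libraries). Of the summed TPM of the triplet and Ina, Ina had 35.7%, 29.9% and 38.7% at E15.5, 17.4%, 20.6% and 21.8% at P1, and 8.53%, 11.7% and 11.5% at P8. It had 8.80%, 9.08% and 8.08% at P14 and 6.39%, 7.41% and 8.09% at P30. The mean was 27.4% ± 8.72 (SD, n = 6) at E15.5 and P1 and 7.98% ± 0.974 (n = 6) at P14 and P30, with no overlap (exact permutation test, p = 0.00216, adjusted 0.00289).

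Vim and Nes together had 2.62% to 3.43% of the TPM of the 7 genes at E15.5, 0.577% to 2.48% at P1, 0.500% to 1.82% at P8, 0.167% to 0.350% at P14 and 0.228% to 0.323% at P30. Their share was 2.33% ± 1.08 (SD, n = 6) at E15.5 and P1 and 0.271% ± 0.0691 (n = 6) at P14 and P30, again with no overlap (exact permutation test, p = 0.00216, adjusted 0.00289). The share of Prph was 3.85% ± 6.33 (n = 6) against 0.908% ± 1.29 (n = 6), and the exact permutation test gave p = 0.316. The 7 genes summed to 1035 to 2177 TPM at E15.5 and to 2613 to 7516 TPM at P14.

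**Figure D3:**
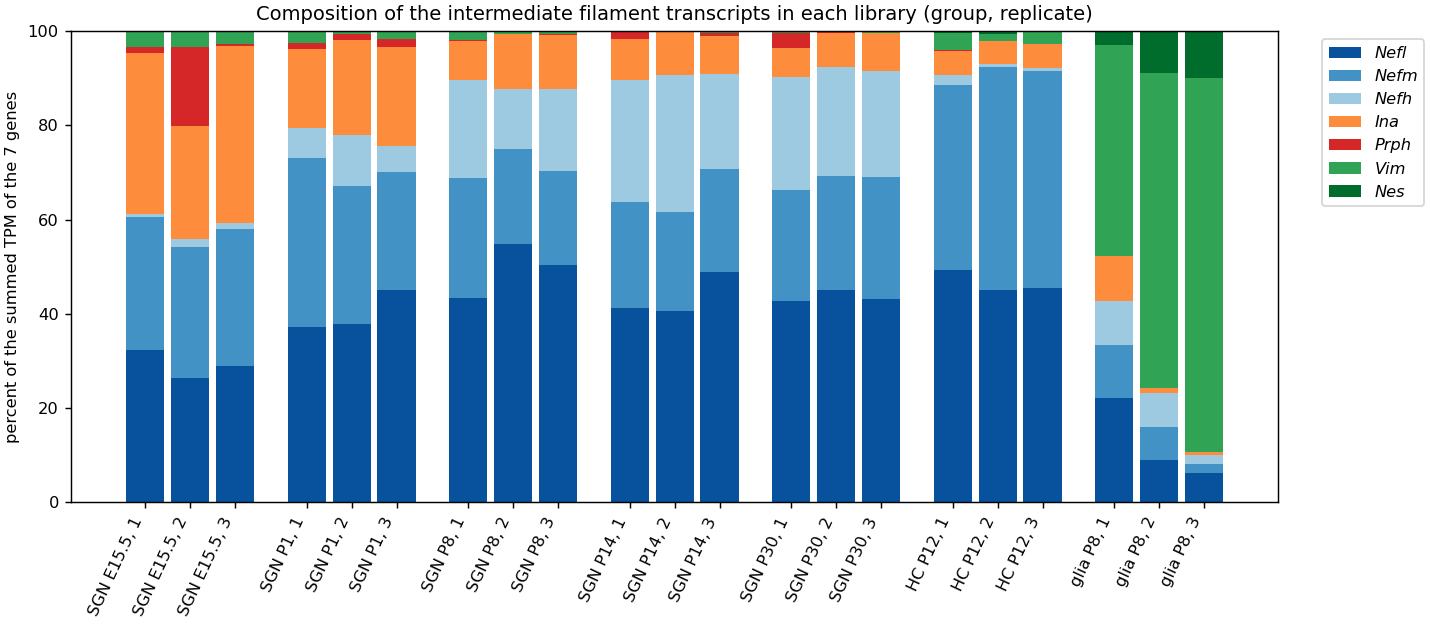
Stacked bars give the percent of the summed TPM of the 7 genes (y axis) taken by each gene in each of the 21 libraries (x axis, group and replicate). In the SGN bars Nefh widens and Ina narrows from E15.5 on, HC bars are mostly Nefl and Nefm, and glial bars are 44.7% to 79.5% Vim.

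The next comparisons asked which of the genes set SGNs apart from the other cells, with calls at adjusted p under 0.01 and a difference over 4-fold among 17531 genes. Against HCs, 5 of the 7 genes were called higher in the mean of the 5 SGN ages (10.5% of all genes tested were called higher). In HC replicates 1, 2 and 3, Nefl was at 176, 154 and 171 TPM and Nefm at 140, 162 and 173 TPM. Nefh was at 7.29, 1.96 and 1.96 TPM and Ina at 18.8, 16.5 and 19.6 TPM. The HC libraries were thus all below all SGN libraries for these 4 genes. The log2 fold change was 4.23 ± 0.33 for Nefl (limma-voom adjusted p = 6.23e-10), 3.62 ± 0.34 for Nefm (1.10e-08), 8.0 ± 1.38 for Nefh (4.94e-05) and 5.78 ± 0.64 for Ina (1.61e-07). These folds come from the normalized counts, and a ratio of mean TPM can differ from them because TPM also divides by the sum of counts per length of each library. With library size as the only scaling, the genes called higher and lower went from 1847 and 2847 to 1335 and 3779 in this comparison, from 1910 and 2136 to 1231 and 3318 between P14 SGNs and P12 HCs, and from 2838 and 1434 to 3580 and 1018 between HCs and glia.

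Vim was at 12.6, 5.73 and 9.29 TPM in the HC libraries and its call (2.70 ± 0.70, adjusted p = 0.00272) ended without HC replicate 2 (adjusted p = 0.0210) or without HC replicate 3 (0.0172), and with library size as the only scaling (0.0133). It was not called between P14 SGNs and P12 HCs, the nearest ages (1.53 ± 0.83, adjusted p = 0.144). In that comparison 4 of the 7 genes were called, all higher (10.9% of all genes tested were called higher): Nefl, Nefm, Nefh and Ina, with log2 fold changes of 4.88, 3.95, 9.93 and 5.73. Nes did not pass against HCs (0.78 ± 1.14, adjusted p = 0.587).

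The levels of the triplet and Ina in HCs were also set beside the SGN markers. The Nefl level divided by the summed SGN marker TPM of the same library was 18.1, 16.1 and 29.0 in HC replicates 1, 2 and 3 and 3.69 to 8.68 in the 15 SGN libraries. For Nefm it was 14.5, 17.0 and 29.4 against 1.90 to 7.62. For Nefh it was 0.751, 0.205 and 0.334, inside the SGN range of 0.167 to 3.65. For Ina it was 1.94, 1.73 and 3.33, inside the SGN range of 0.732 to 9.15. The part of neurons in the HC levels was not tested. The share of Nefh in the triplet was 2.25%, 0.616% and 0.568% in HCs, below all SGN libraries from P1 on, and that of Ina among the triplet and Ina was 5.50%, 4.95% and 5.37%, below all 15 SGN libraries. The mean TPM of Nefl ranked 422 among all genes in HCs and that of Nefm 455.

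Against glia, 4 of the 7 genes were called higher in the mean of the 5 SGN ages and 2 lower (14.3% and 10.4% of all genes tested). In glial replicates 1, 2 and 3, Nefl was at 118, 28.2 and 14.9 TPM, Nefm at 59.7, 22.3 and 5.10 TPM, Nefh at 49.7, 22.9 and 4.25 TPM and Ina at 51.1, 3.25 and 1.51 TPM. Replicate 1, the glial library with the highest SGN marker sum, was the highest for all 4. At P8, the age both cell types share, the same 4 genes were called higher in SGNs and the same 2 lower (13.4% and 7.53% of all genes tested), and the counts were unchanged when P1 replicate 1, P8 replicate 1, P14 replicate 1 and glial replicate 1 were left out together. The log2 fold changes at P8 were 5.17 ± 0.43 for Nefl (limma-voom adjusted p = 1.80e-08), 4.96 ± 0.54 for Nefm (5.94e-07), 4.72 ± 0.62 for Nefh (5.76e-06) and 5.23 ± 0.74 for Ina (1.33e-05). Divided by the summed SGN marker TPM, Nefl came to 3.08, 5.51 and 8.20 in glia, beside 3.69 to 8.68 in SGNs. Nefm came to 1.56, 4.35 and 2.80 beside 1.90 to 7.62, and Nefh to 1.29, 4.48 and 2.33 beside 0.167 to 3.65. For Ina the values were 1.33, 0.634 and 0.827 beside 0.732 to 9.15. The part of SGNs in the glial levels was not tested.

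Vim and Nes were the 2 genes higher in glia. Vim was at 238, 211 and 194 TPM in glial replicates 1, 2 and 3, above all 18 other libraries, and Nes at 15.6, 27.8 and 24.1 TPM, above them too. Between P8 SGNs and P8 glia the log2 fold change was -3.09 ± 0.34 for Vim (limma-voom adjusted p = 7.26e-07) and -3.45 ± 0.66 for Nes (0.000281). The call of Nes at P8 was lost in edgeR's quasi-likelihood test (adjusted p = 0.0288). Together they took 47.6%, 75.7% and 89.3% of the TPM of the 7 genes in glia. The 5 connective tissue markers summed to 255 to 413 TPM in glia and to 10.1 to 151 TPM in P8 SGNs, and the part of such cells in the Vim and Nes levels was not tested.

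Between P12 HCs and P8 glia, 2 of the 7 genes were called, both lower in HCs (8.18% of all genes tested were called lower): Vim, with -6.33 ± 0.70 (limma-voom adjusted p = 6.60e-07), and Nes, with -5.98 ± 1.11 (0.000198). Nefh had a log2 fold change of -4.45 ± 1.50 with adjusted p = 0.0200, past the fold limit only, and was called lower in HCs by edgeR (9.13e-05) and DESeq2 and without glial replicate 3 (0.00214). Nefl (0.28 ± 0.53) and Ina (-0.59 ± 0.97) did not pass, at adjusted p = 0.693 and 0.649.

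**Figure D4:**
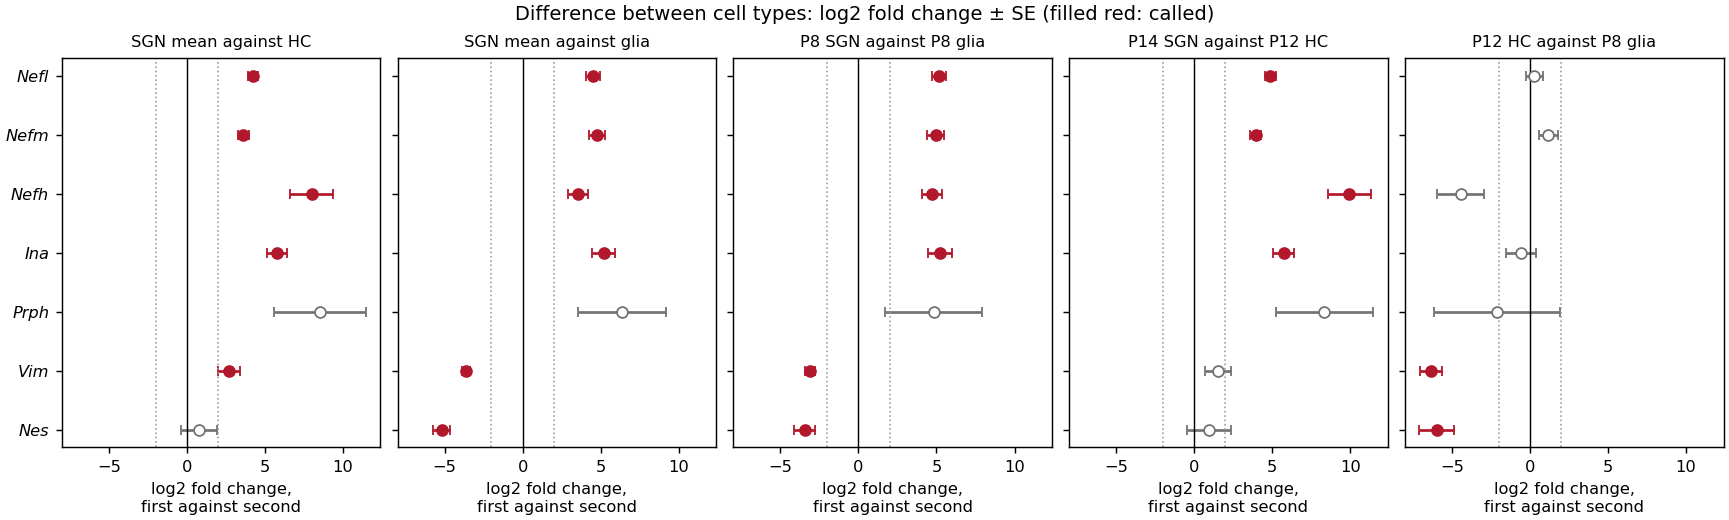
Each panel shows, for 1 comparison of cell types, the log2 fold change (x axis, first group against second) with its standard error (bars) for the 7 genes (y axis); filled red points were called and dotted lines mark the 4-fold limits. Nefl, Nefm, Nefh and Ina lie to the right wherever SGNs are compared, and Vim and Nes to the left wherever glia are.

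By mean TPM the groups could be put in order, with neighbors set apart where the fit of all 21 libraries gave adjusted p under 0.05. For Nefl, P14, P8 and P30 were not set apart from each other as neighbors, P30 was above P1 (0.000682), P1 above E15.5 (0.0105) and E15.5 above HC (2.09e-06), and HC was not set apart from glia. For Nefm, P14, P1, P8 and P30 formed such a run, with P30 above E15.5 (0.00199) and E15.5 above HC (2.23e-06). For Nefh, P14, P30 and P8 did, P8 was above P1 (0.000163), P1 above glia (0.00200), glia and E15.5 were not set apart, and E15.5 was above HC (0.0304). For Ina, the 5 SGN ages were not set apart from their neighbors and the lowest, P30, was above glia (4.44e-05). For Vim and Nes only glia were set apart from the group after them, E15.5 for Vim (1.61e-05) and P8 for Nes (0.000281). No neighbors were set apart for Prph, except P8 from HC with the replicate number as a block (0.0462).

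Prph was the gene that set SGN libraries of the same age furthest apart at E15.5, P14 and P30. In the 3 HC libraries it had 6, 0 and 0 counts and in the 3 glial libraries 12, 0 and 4 counts, where 3 counts are 0.243 to 0.325 TPM in HCs and 0.0992 to 0.171 TPM in glia. Against HCs its log2 fold change was 8.52 ± 2.96 with limma-voom adjusted p = 0.0198, past the fold limit only, and edgeR (adjusted p = 0.00220) and DESeq2 (3.29e-08) called it higher in SGNs. Against glia it was 6.39 ± 2.82 (limma-voom adjusted p = 0.0660), with edgeR at 0.00507 and DESeq2 at 2.54e-06. For Ina, DESeq2 gave no p-value in any of the comparisons between cell types, so that its calls there have no DESeq2 counterpart; its log2 fold changes by that tool were 5.59 ± 0.52 against HCs and 4.20 ± 0.52 against glia.

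The other genes of type II SGNs on the marker list were read beside it: Gata3, a transcription factor of the developing ganglion, Th, the enzyme of catecholamine synthesis, and Plk5, of the polo-like kinase family. At P30, replicate 1 had the most Prph (108 TPM) and also the most Gata3 (10.9 TPM), Th (4.51 TPM) and Plk5 (1.83 TPM), and replicate 3 the least of all 4, at 0.306, 3.83, 0.539 and 0.110 TPM. At P14, replicate 2 had the least Prph (0.643 TPM) and the least Gata3 (7.02 TPM), Th and Plk5 (3.82 TPM). The other P14 libraries differed in order: Prph was 83.9 TPM in replicate 1 and 47.0 TPM in replicate 3. There the sum of Gata3, Th and Plk5 was 54.1 and 58.3 TPM. At P1, replicate 3 had the most Prph (57.2 TPM) and the highest sum (74.2 TPM), and replicate 2 the lowest of both (40.3 and 61.3 TPM). At P8 the order differed: replicate 2 had the most Gata3 (34.8 TPM), Th (16.2 TPM) and Plk5 (25.3 TPM), but 5.40 TPM of Prph against 9.41 TPM in replicate 1. At E15.5, replicate 2 had the most Prph (173 TPM) and the least Gata3 (48.4 TPM). With 3 libraries an age these orders were not tested, and how many type II SGNs were picked is not given in the sources used here. Gata3, Th and Plk5 summed to 36.7 to 41.6 TPM in HCs, above the 4.48 to 17.2 TPM of P30 SGNs. The study describes Gata3 in many cochlear cells, HCs among them. P14 replicate 1 held 117 TPM of HC markers. The part of HCs in the levels of these 3 genes was not tested.

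**Figure D5:**
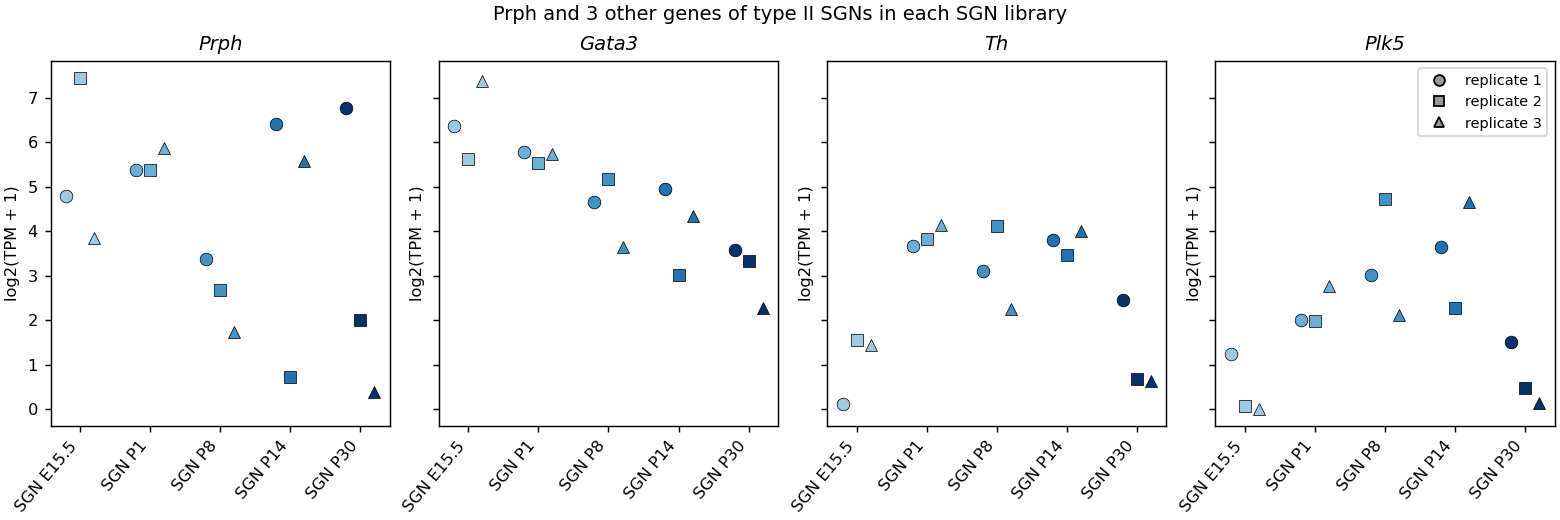
The plot gives log2(TPM + 1) (y axis) of Prph, Gata3, Th and Plk5 in each SGN library (points, shape by replicate) at the 5 ages (x axis). At P14 replicate 2 and at P30 replicate 3 are lowest for all 4 genes, whereas at E15.5 the highest Prph and the lowest Gata3 are in the same library.

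The genes of the same pathway were read from lists of other cytoplasmic intermediate filaments, lamins, cytolinkers, filament kinases, transport motors, and turnover factors and chaperones, in all 37 genes, of which 1 was not matched, 28 were tested in the age fit and 32 in the cell type fit. From E15.5 to P30, 9 of the 28 were called higher and 1 lower, where 18.4% of all genes tested were called higher and 16.2% lower, with a median log2 fold change of 0.48 beside -0.01 over all genes. Of the 6 motors that move filament proteins along the axon, 4 rose: Kif5a (1.08 ± 0.13), Kif5b (1.50 ± 0.16), Klc1 (1.20 ± 0.15) and Myo5a (1.39 ± 0.15). Of the 3 cytolinkers tested, which tie filaments to microtubules and actin, Dst (1.84 ± 0.13) and Plec (1.39 ± 0.24) rose. Synm, whose product synemin co-assembles with vimentin and other filaments, rose from 19.5, 8.94 and 22.9 TPM at E15.5 to 58.9, 63.4 and 47.4 TPM at P30 (1.99 ± 0.19, limma-voom adjusted p = 5.63e-07). Cdk5, a kinase of the neurofilament tails, and Cdk5r2, the gene of an activator of it, rose by 1.08 ± 0.33 and 1.89 ± 0.58. Cdk5r1, the gene of another activator, went down by -0.97 ± 0.22 (limma-voom adjusted p = 0.00229), inside the 2-fold limit. Of the 8 genes of that list, limma-voom called 2, edgeR 1 and DESeq2 2. The nuclear lamin gene Lmnb1 fell by 3.03 on the log2 scale (SE 0.54).

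At the single steps fewer of them were called. Lmnb1 fell from E15.5 to P1 (3.18% of all genes tested were called lower) and from P1 to P8 (3.15%), and in edgeR's quasi-likelihood test it was not called in the first of these steps (adjusted p = 0.0732), which left none of the 28 called there. Synm (1.16 ± 0.18) and the chaperone Cryab (3.83 ± 0.81) rose from P1 to P8. From P8 to P14 and from P14 to P30 none of the 28 was called by limma-voom, edgeR or DESeq2, with 6 and 5 at an unadjusted p under 0.05 in limma-voom. Cryab is also abundant in Schwann cells, and 8 Schwann cell myelin markers summed to 816 to 1500 TPM in P8 SGNs against 72.1 to 208 TPM in P1 SGNs. The part of those cells in the Cryab level was not tested.

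Against HCs, 10 of the 32 tested genes were called higher in the mean of the SGN ages and 3 lower (10.5% and 16.2% of all genes tested), and between P14 SGNs and P12 HCs 11 were called, all higher (10.9% of all genes tested). Kif5a was at 17.4, 19.6 and 23.3 TPM in HCs and at 65.9 to 296 TPM in SGNs (4.41 ± 0.37), and the de-ubiquitinating enzyme Uchl1 differed by 8.08 ± 1.23. The 3 lower in SGNs were the epithelial keratins Krt8 (-4.73 ± 0.76) and Krt18 (-5.83 ± 1.10) and the desmosomal linker Dsp (-5.21 ± 1.15). Against glia, 9 were higher and 3 lower (14.3% and 10.4% of all genes tested), again with Kif5a, Kif5c, Klc1 and Myo5a among the higher. Lmna was at 92.1, 69.8 and 80.1 TPM in glia and at 2.15 to 11.4 TPM in SGNs (-4.03 ± 0.18), and Lmnb1 (-2.82 ± 0.32) and Cryab (-4.55 ± 0.35) were the others called lower. Gfap, the astrocyte filament, was at or below 0.852 TPM in all 21 libraries.

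As a description, the genes whose log2(TPM + 1) over the 21 libraries came nearest to each of the 7 were listed, 3 for each, by Pearson r; the libraries share groups and differ in depth, so that most of r is difference between cell types. For Nefl they were Ywhag, Syn1 and Syp (r of 0.987, 0.986 and 0.986), of which Syn1 and Syp encode synaptic vesicle proteins. For Nefm they were the microtubule-associated protein genes Map1b and Map2 and Lonrf2 (0.982, 0.981 and 0.980), and for Nefh Lynx1, Vsnl1 and Cplx1 (0.980, 0.978 and 0.974). Ina came nearest to Mdga1, Mllt11 and Slco5a1 (0.990, 0.985 and 0.978), Prph to Fgf13, Dok4 and Gabra2 (0.90, 0.893 and 0.884), Vim to Mmp15, Ephb6 and Itga6 (0.939, 0.927 and 0.925), and Nes to Col5a2, Emcn and Itpripl2 (0.957, 0.952 and 0.947). Within the 15 SGN libraries alone, r was 0.89 between Nefl and Nefm, which share exonic bases, 0.84 between Nefl and Nefh, and 0.23 between Nefl and Ina.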

How the data were processed

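The authors mapped reads with STAR 2.4.0i to mm10 and counted them per gene with featureCounts and GENCODE vM15; they deposited 1 table of raw counts per gene for 21 libraries, with gene lengths in bases (other values), which was the only table used here. RNA was amplified with Ovation RNA-Seq V2, without molecular identifiers, and 67.9% of counts between 1 and 20 were even (median over libraries). The 52550 genes were given symbols from the reference tables (52403 matched), and TPM was computed from counts and the deposited lengths. Positions and overlaps are from GENCODE vM21 on GRCm38; the deposited length of Prph was 1865 bases against 1999 there, and those of the other members were equal. Following the study's methods, genes with CPM over 1 in all libraries of at least 1 group were kept (15113 for ages, 17531 for cell types), TMM-normalized with edgeR 4.0.16 and tested with limma-voom 3.58.1 (R 4.3.3), with Benjamini-Hochberg adjustment over all genes and age or cell type as group means. The study gives 17531 genes as kept without HCs and glia, and more with them, so that the counts kept here differ from its own. Shares were compared with an exact two-sided permutation test. DESeq2 1.42.0, edgeR's quasi-likelihood test, other scalings, no filter, quality weights, a replicate block and left-out libraries were alternatives. The scripts were tested on simulated data. No 2 libraries were identical. The mitochondrial share of counts was 9.57% to 24.2% in SGN libraries. The labels call the HCs manually sorted, and the study's methods name flow sorting for them. The members and all lists were chosen with earlier results of these data known. The named genes are the 7 members, the 3 genes nearest each by Pearson r of log2(TPM + 1), and genes of the 6 lists, which are related filaments and their partners. One SGN marker of the lists is not reported here, and the marker sums leave it out.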

Additional observations from a re-analysis of the deposited data

Results flagged for a closer look

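The Prph share of the TPM of the 7 genes was 16.7% in E15.5 replicate 2, which stood far above the other 5 libraries of E15.5 and P1, at 0.612% to 1.69%; its gap to the nearest of them, divided by the range of the 6 libraries, was 0.933, above the critical value of 0.625 of Dixon's test. The same library had 173 TPM of Prph, 37.6 TPM of summed SGN markers and 9.30 TPM of summed glial markers. Chance flags about 1 in 20 groups drawn from a single population, and 8 groups of 6 libraries were examined. Each of these groups pools 2 ages and the shares have genes in common, so that this rate may not hold here. Without that library the difference in the Prph share between E15.5 and P1 and P14 and P30 was -0.359 percentage points, against -2.94 with it, and in neither case did the exact permutation test pass.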

How the results depend on the processing

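No call of a member changed direction under any alternative. The count of called members was 0 from E15.5 to P1 with no filter on low counts, 2 without the 3 SGN libraries richest in markers of other cells (an alternative chosen after seeing the data), and 1 to 2 as single libraries were left out. It was 1 from P1 to P8 with library size only and 3 in a fit of those libraries alone, which added Prph, and 1 from P8 to P14 with DESeq2 and with the replicate block, Vim in both. With no filter, 3 members were called between SGNs and HCs, 3 between SGNs and glia, 3 at P8 and 1 between P14 SGNs and P12 HCs, since the standard error of Nefl against HCs went from 0.33 to 2.19 as 36366 genes entered the fit in place of 17531. Leaving out single libraries gave 3 to 4 members from E15.5 to P30, 4 to 6 between SGNs and HCs, 4 to 5 between P14 SGNs and P12 HCs and 2 to 3 between HCs and glia, with constant counts of 2, 0 and 0 at the later steps, 5 over the ages (4 with library size only, without Nefm), and 6 against glia in both comparisons. The Nefh, Ina and Vim with Nes shares differed by 19.5 to 22.2, -21.4 to -17.1 and -2.41 to -1.83 percentage points without single libraries, and by 23.2, -27.5 and -2.81 between E15.5 and P30 alone; the Prph share differed by -3.59 to -0.359. The same replicate numbers occur in all groups. Of the 21 pairs of groups, all 3 same-numbered libraries correlated above 0.1 in their deviations only between P8 and P30 (0.391, 0.183 and 0.154). These 2 ages were compared directly only as neighbors in the order of levels, and there the block changed no call. Both also enter the limma-voom F-test over the 5 ages, where Nes passed with the block (adjusted p = 0.0387) and not without it (0.212). In the other comparisons the numbers are not taken as pairs. With the block, chosen for the order after seeing the data, 12 neighbors were set apart in place of 11. With the replicate block 6 members changed over the ages and 6 differed between SGNs and HCs, and permuting within numbers gave adjusted p = 0.0123 for the Nefh, Ina and Vim with Nes shares by the exact test. Mean TPM of members moved by 0.721 to 1.23 times with TMM scaling and by 1.10 to 1.75 times without mitochondrial genes. With 3 libraries a group, Prph and Nes had standard errors of 1.07 to 1.98 on the log2 scale at the age steps in the fit of all 15 SGN libraries, and a p that missed the threshold does not show that they stayed the same.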
